A study of Mus musculus with 4 samples.

Results

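The 10 genes described here are the mouse MHC class II genes with their transcriptional coactivator: the classical chains H2-Aa (ENSMUSG00000036594), H2-Ab1 (ENSMUSG00000073421) and H2-Eb1 (ENSMUSG00000060586), the invariant chain Cd74 (ENSMUSG00000024610), the peptide-editing chains H2-DMa (ENSMUSG00000037649), H2-DMb1 (ENSMUSG00000079547) and H2-DMb2 (ENSMUSG00000037548), the H2-DM inhibitor chains H2-Oa (ENSMUSG00000024334) and H2-Ob (ENSMUSG00000041538), and Ciita (ENSMUSG00000022504). They were chosen by gene symbol, and all 10 were found, each on 1 row, among the 31253 genes listed. MHC class II molecules are pairs of an alpha and a beta chain that carry peptides from ingested proteins to the cell surface, where CD4 T cells read them. Newly made pairs are held by Cd74, whose remnant is exchanged for peptide with the help of H2-DM, and H2-O restrains H2-DM. Ciita binds no DNA itself but is recruited to the promoters of these genes and is needed for their transcription. B cells, dendritic cells and macrophages are the textbook class II-bearing cells.

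The data are 4 single-cell libraries (10x Genomics 3' chemistry) from female mice aged 4 to 8 weeks that carried CT26 tumours, a mouse colon carcinoma line, 1 library for each of 4 groups: the tumour and the tumour-draining lymph node, each from NanoCa-treated and from mock mice. NanoCa is, by the title of the study, a lipid nanoparticle with a calcium crystal structure made for interferon-beta immunotherapy. The mock libraries are tagged as untreated, whereas the protocol field names NanoCa for all 4 libraries, and the groups here follow the titles and tags. How many mice were pooled into a library is not stated, and cells were stained for CD45 and sorted, with no gate stated. With 1 library a group there is no replicate and no test: each value is given with a 95% interval that covers counting error only, and treatment, tissue and library cannot be told apart.

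Levels are given as CPM: the unique molecular identifiers (UMIs) of a gene summed over the cells of a class in 1 library, scaled to a total of 1000000 UMIs of those cells. The libraries held 74909974 to 167924801 UMIs, and 8592 to 10209 cells were kept. An exact Poisson interval reached 52.0% below and 83.9% above a value that rested on 10 UMIs, 18.6% below and 21.6% above at 100 UMIs, and 1.95% below and 1.98% above at 10000 UMIs. No cell annotation was used from the sources, so classes were rebuilt by clustering without the 10 genes and named from marker lists, which is why each name ends in -like. Carcinoma-like cells, which the CD45 stain would be meant to leave out, made up 60.0% and 55.8% of the cells in the NanoCa and mock tumour, and their Ptprc (the gene of CD45) was 2.19 to 17.2 CPM against 92.1 to 1491 CPM in the immune classes. T-like cells are given as a reference for RNA from other cells, since mouse T cells are known not to make class II themselves: Cd74 stood at 153, 154, 135 and 146 CPM in them, or 0.351, 0.449, 0.648 and 0.710 UMIs a cell, in the order NanoCa tumour, mock tumour, NanoCa lymph node and mock lymph node that is kept throughout. Between 121 and 183 cell barcodes were shared by any pair of libraries, at most 1.65% of the smaller one.

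The classical chains, H2-DM and H2-O share a promoter architecture in which an X box, bound by the RFX complex, is followed by a Y box, bound by NF-Y, and Ciita docks on the assembled factors. RefSeq (GRCm38.p6) gave the 250 bases before the start of transcription for 7 of the 10 genes. The windows below are shown because the members differ in which of these letters they carry. Capitals mark the Y box letters TGATTGG and, where found, the X box letters, AAC and ATGATG with any 2 bases between them, letters that were chosen after the promoters had been read.
H2-Aa, chr17:34287861-34287921, minus strand: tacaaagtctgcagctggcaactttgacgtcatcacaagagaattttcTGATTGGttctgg
H2-Eb1, chr17:34305758-34305818, plus strand: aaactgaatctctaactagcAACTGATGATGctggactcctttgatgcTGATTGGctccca
H2-DMb1, chr17:34153080-34153140, plus strand: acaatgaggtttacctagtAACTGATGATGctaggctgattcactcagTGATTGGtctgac
H2-DMb2, chr17:34145109-34145169, plus strand: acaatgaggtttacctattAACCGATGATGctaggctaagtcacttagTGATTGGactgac
H2-Ob, chr17:34238798-34238858, plus strand: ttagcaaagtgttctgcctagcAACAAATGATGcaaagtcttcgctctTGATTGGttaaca
H2-Oa, chr17:34092286-34092346, plus strand: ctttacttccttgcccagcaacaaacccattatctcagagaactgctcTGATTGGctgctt
The Y box letters lay 45 to 92 bases before the start in these 6 genes, and on either strand they were found in 2375 of 32851 promoters (7.23%). The X box letters were found in 39 promoters (0.119%), and both in 9, among them those of H2-Eb1, H2-DMb1, H2-DMb2 and H2-Ob, with 15 to 18 bases between the boxes. Neither set of letters was in either promoter entry of H2-DMa, which says only that these letters are not in those windows. H2-DMb1 and H2-DMb2 are related genes. Their longest protein-coding transcripts were 69.1% identical over the whole length, with an identical run of 221 bases. Over the last 300 bases they were 64.6% identical, and the longest identical run there was 23 bases. Reads of 3' chemistry fall mostly near that end, and how reads from the shared run were split between the pair is unknown here. On the opposite strand H2-Eb1 overlaps the antisense gene Gm20513, H2-Oa the antisense gene BC051537, Ciita the gene Dexi, and H2-DMa the gene Brd2, an antisense gene and a pseudogene. On the same strand H2-DMa overlaps a further antisense gene and Cd74 a microRNA gene.

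The classical chains and Cd74 were highest in conventional dendritic-like cells in all 4 libraries, with B-like cells next and carcinoma-like or T-like cells last in each library. H2-Aa, the alpha chain of H2-A, stood at 16130.1 and 16324 CPM in the NanoCa and mock tumour and 18137 and 18796 CPM in the NanoCa and mock lymph node in conventional dendritic-like cells. In B-like cells it was 6487, 7364, 12095 and 10603 CPM, and the tumour values were below both lymph node values. Monocyte and macrophage-like cells held 1845, 2606, 3070.2 and 5824 CPM of H2-Aa, with the mock lymph node highest. Germinal-centre B-like cells, the B cells that mutate and select their receptors, had 4229, 4974, 5116 and 4829 CPM, and plasmacytoid dendritic-like cells, the main makers of type I interferon, had 2804, 3231, 5484 and 5136 CPM. Mature dendritic-like cells, marked by Ccr7 and Fscn1, had 5456, 2914, 3102 and 2145 CPM. NK-like cells were at 123, 37.4, 254 and 103 CPM, carcinoma-like cells at 7.24, 9.97, 65.8 and 47.1 CPM and T-like cells at 61.1, 50.7, 61.6 and 58.0 CPM. In CPM the carcinoma-like values of both tumours and the mock lymph node lay below those of T-like cells, which were far shallower, at a median of 1909 to 4317 UMIs a cell against 21085 to 57766. Per cell, carcinoma-like cells held 0.781, 1.33, 16.6 and 11.8 UMIs of the 10 genes and T-like cells 0.842, 0.964, 1.52 and 1.67, so that carcinoma-like cells held more in all libraries but the NanoCa tumour.

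Cd74, the invariant chain that escorts class II through the cell, was likewise highest in conventional dendritic-like and next in B-like cells. It was 29324, 30489, 32163 and 34130.1 CPM in conventional dendritic-like, 16769, 19119.6, 28938 and 26605 CPM in B-like and 12381, 13749, 14994 and 14492 CPM in germinal-centre B-like cells. Monocyte and macrophage-like cells had 5614, 8150.4, 7897 and 14893 CPM of Cd74, and the mock lymph node value lay above the other three. H2-Ab1, the beta partner of H2-Aa, ranged over the 4 libraries from 9525 to 12160 CPM in conventional dendritic-like, 2892 to 5965 in B-like and 1254 to 4364 in monocyte and macrophage-like cells. H2-Eb1, the beta chain of H2-E, ranged from 9673 to 10819, 3132 to 5774 and 1135 to 4237 CPM in the same classes. The order below B-like cells differed between libraries. In the mock lymph node, monocyte and macrophage-like cells came next after B-like cells for H2-Aa, H2-Ab1, H2-Eb1 and Cd74, with intervals apart from the next class, whereas in the NanoCa tumour they came after all B-like and dendritic-like classes.

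**Figure D1:**
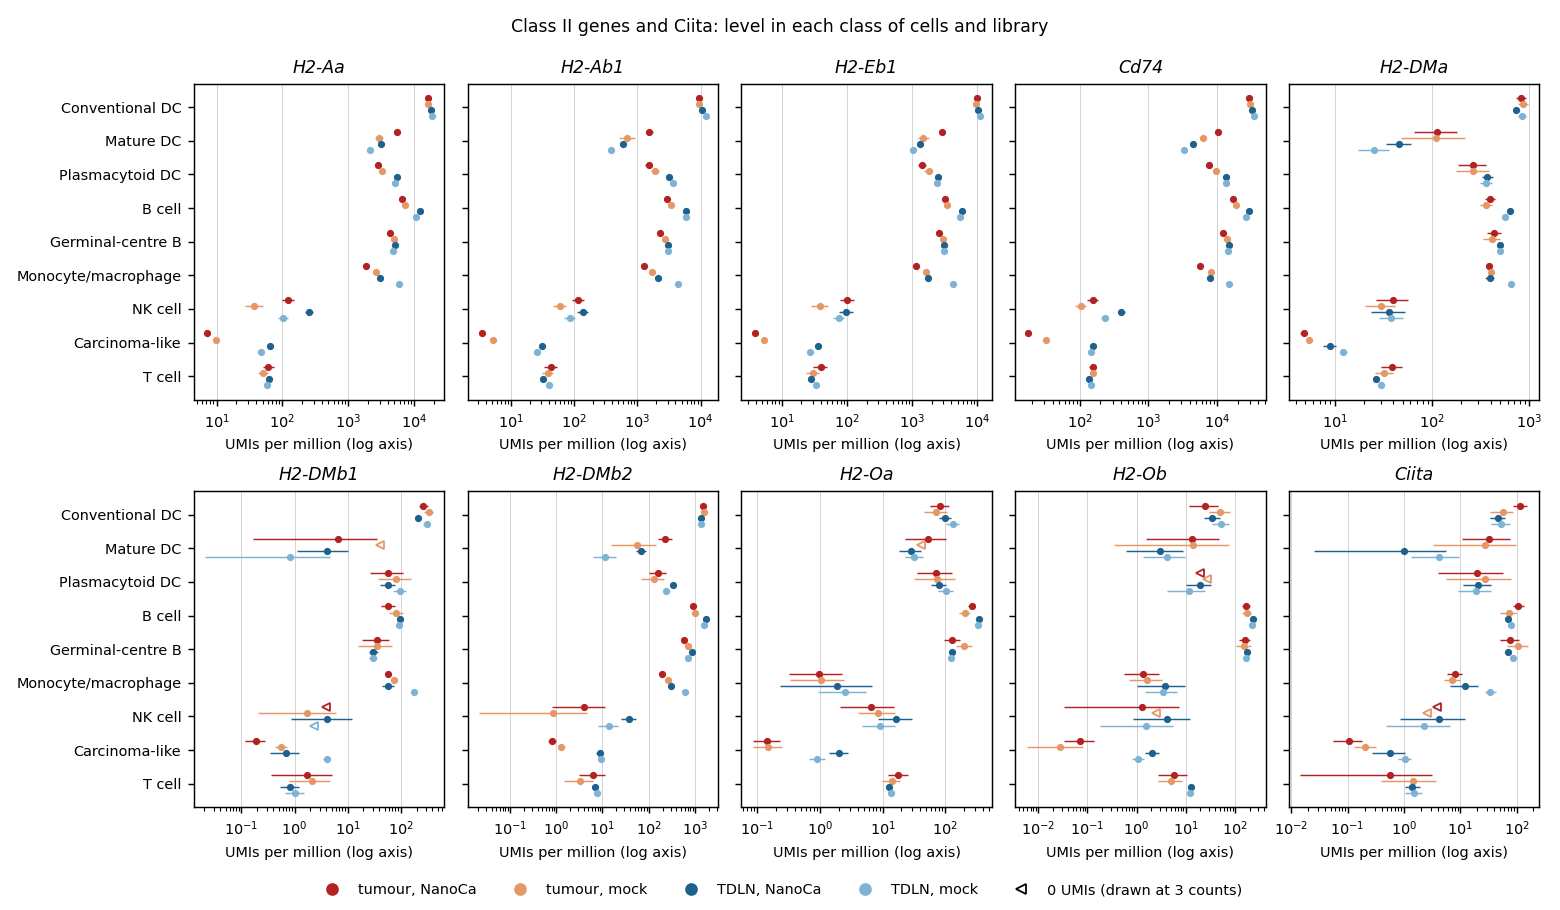
Level of each of the 10 genes (CPM, logarithmic axis) in each cell class, with 1 point for each of the 4 libraries and 95% Poisson intervals; open triangles mark 0 UMIs, drawn at the limit of 3 counts. Conventional dendritic-like and B-like cells have the highest levels in most panels, H2-Oa and H2-Ob set B-like cells apart from macrophage-like cells, and carcinoma-like cells of the tumours lie at or below the shallower T-like cells in CPM.

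The H2-DM chains, which catalyse the exchange of the Cd74 remnant for peptide, differed in order from the classical chains below the top. H2-DMa was 819.6, 859.7, 733 and 848 CPM in conventional dendritic-like cells, above every other class in all 4 libraries. It was 390.5, 358, 638 and 563 CPM in B-like and 382, 401, 390.3 and 649 CPM in monocyte and macrophage-like cells, and the intervals of both classes overlapped in the tumours. In T-like cells H2-DMa was 38.8, 32.4, 26.4 and 29.8 CPM. H2-DMb2, a beta chain for H2-DMa, was highest in conventional dendritic-like cells in the tumours (1498 and 1612 CPM) and in B-like cells in the lymph nodes (1772 and 1541 CPM). The related H2-DMb1 was 268, 339, 216 and 313 CPM in conventional dendritic-like and 58.4, 81.7, 99.5 and 92.6 CPM in B-like cells. Of H2-DMb1, monocyte and macrophage-like cells had 57.4, 75.4, 57.6 and 181 CPM, so that its mock lymph node level exceeded that of B-like cells.

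H2-Oa and H2-Ob form H2-O, which holds H2-DM back and is known mainly from B cells. H2-Oa was 264 and 205 CPM in the NanoCa and mock tumour and 352 and 339 CPM in the NanoCa and mock lymph node in B-like cells, the highest class in all 4 libraries. H2-Ob was likewise highest in B-like cells, at 169.5, 176, 237 and 228 CPM. The germinal-centre B-like intervals overlapped those of B-like cells for H2-Ob in both tumours and for H2-Oa in the mock tumour. In conventional dendritic-like cells H2-Oa was 82.9, 71.4, 99.6 and 133 CPM, lower than in B-like cells of the same library, where the classical chains were higher. In monocyte and macrophage-like cells H2-Oa was 0.980, 1.04, 1.89 and 2.54 CPM, resting on 2 to 6 UMIs a library, and H2-Ob was 1.37, 1.66, 3.78 and 3.39 CPM. T-like cells had more H2-Oa than that, at 17.7, 14.0, 12.9 and 13.9 CPM.

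Within the T-like cells of the lymph node, H2-Oa differed between clusters while Cd74 did not follow it; the clusters were singled out after their values were seen. The cluster led by Nkg7, Dapl1, Cd8b1 and Cd8a (1585 NanoCa and 1391 mock cells) had H2-Oa at 24.7 CPM (95% interval 21.5 to 28.2) in the NanoCa and 26.8 CPM (95% interval 23.2 to 30.7) in the mock library. The cluster led by Cd3g, Cd3d and Cd3e had 3.12 CPM (95% interval 1.85 to 4.93) and 3.67 CPM (95% interval 2.42 to 5.34). A further cluster, led by Dapl1, Lef1 and Cd3d, had 4.50 and 6.68 CPM. Cd74 was 101 and 105 CPM, 157 and 157 CPM and 107 and 126 CPM in the same 3 clusters, so that the cluster highest in H2-Oa was not the highest in Cd74. H2-Ob, the beta partner of H2-Oa, was 10.9 and 9.57 CPM in the Cd8a cluster and 12.5 and 12.8 CPM in the Cd3g cluster. The cluster led by Ccr8, Foxp3 and Penk, of which Foxp3 is the defining factor of regulatory T cells, had H2-Oa at 15.8 and 16.9 CPM. The ratio of H2-O to H2-DM UMIs was 0.50, 0.505, 0.751 and 0.680 in T-like cells and 0.316, 0.264, 0.235 and 0.258 in B-like cells. H2-DMa was 10.6%, 9.77%, 8.31% and 8.70% of the member UMIs in T-like cells. It was 1.25%, 1.02%, 1.14% and 1.10% in B-like and 3.64%, 2.70%, 2.51% and 2.11% in monocyte and macrophage-like cells. T-like H2-Oa and H2-DMa are therefore not used as a measure of RNA from other cells, although the subtraction of the T-like level included both.

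Ciita, the coactivator, was counted far more sparsely than the genes it serves, in 0 to 648 UMIs a class and library. It was 117 CPM (95% interval 86.3 to 155) and 56.5 CPM (95% interval 34.0 to 88.3) in conventional dendritic-like cells of the NanoCa and mock tumour, and 46.6 and 53.5 CPM in the lymph nodes. B-like cells had 108, 72.6, 71.3 and 80.4 CPM and germinal-centre B-like cells 75.8, 107, 71.2 and 85.1 CPM, and the intervals of these 3 classes overlapped in most libraries. Monocyte and macrophage-like cells had 8.04, 7.27, 12.3 and 34.3 CPM, again highest in the mock lymph node, and plasmacytoid dendritic-like cells had 19.6, 27.4, 20.6 and 19.1 CPM. Mature dendritic-like cells of the lymph node had 1.00 and 4.11 CPM of Ciita, 1 and 5 UMIs, beside their 3102 and 2145 CPM of H2-Aa. In NK-like cells no Ciita UMI was counted in either tumour, which allows up to 3.93 and 2.55 CPM by the limit of 3 counts. Carcinoma-like cells had 0.104, 0.207, 0.568 and 1.04 CPM, with 13 and 22 UMIs in the tumours.

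Per cell, the classes ran from those in which nearly every cell held much class II RNA, through macrophage-like, mature and plasmacytoid dendritic-like cells with a wide spread, to those whose median cell held none after thinning. With each cell thinned to 1000 UMIs and shallower cells left out, the median cell held 61, 66, 78 and 77.5 UMIs of the 10 genes in conventional dendritic-like cells. B-like cells had a median of 33, 38, 58 and 54, and germinal-centre B-like cells of 23, 30, 31 and 31. Monocyte and macrophage-like cells had a median of 2, 5, 2.50 and 20 with a wide spread: the 10th percentile was 0, 0, 0 and 1 and the 90th 39.6, 47, 59 and 61.7. The mock lymph node had the highest of these medians. Mature dendritic-like cells had medians of 6, 3, 3 and 3 beside 90th percentiles of 36.6, 28, 23 and 13, again a wide spread. The 5 richest mature dendritic-like cells carried 66.3% and 92.9% of the class's member UMIs in the NanoCa and mock tumour, where the class had 36 and 12 cells. Plasmacytoid dendritic-like cells had medians of 4, 13, 24 and 23.5. NK-like, carcinoma-like and T-like cells had a median of 0 in all 4 libraries, although unthinned a member UMI was found in up to 76.9%, 78.0% and 72.1% of their cells.

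**Figure D2:**
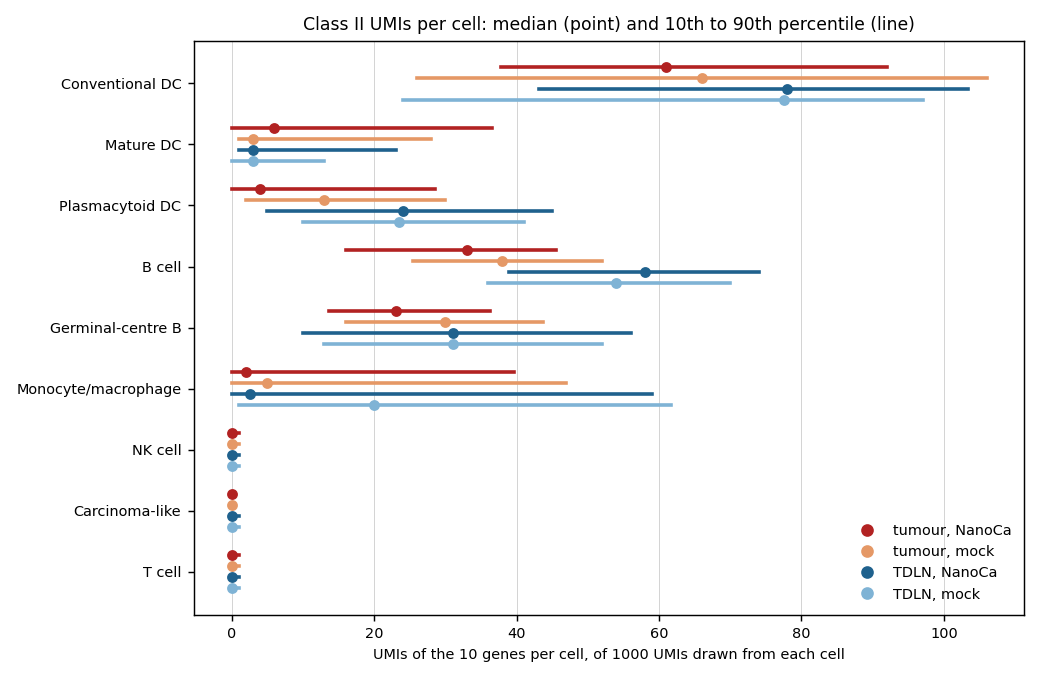
UMIs of the 10 genes per cell after thinning each cell to 1000 UMIs, by class and library, with the median, the 10th and the 90th percentile of cells. Conventional dendritic-like and B-like cells have high medians in every library, macrophage-like cells span the axis, and the NK-like, carcinoma-like and T-like medians are at 0.

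The share of cells with a Cd74 UMI after thinning was 61.5%, 75.9%, 58.3% and 86.0% in monocyte and macrophage-like cells and 74.3%, 81.8%, 67.8% and 64.6% in mature dendritic-like cells. It was 10.1%, 10.6%, 11.1% and 10% in NK-like cells, within the range of the T-like shares of 8.92%, 13.9%, 12.3% and 12.8%, and 2.17%, 4.61%, 8.01% and 11.1% in carcinoma-like cells. Unthinned, the shares were 22.3%, 32.3%, 41.5% and 40.7% in NK-like, 18.5%, 30.4%, 37.7% and 40.7% in T-like and 18.4%, 31.6%, 43.6% and 55.3% in carcinoma-like cells, at median depths of 3145, 3329, 4728 and 5256, 1909, 2318, 4308 and 4317 and 21085, 23594, 57766 and 48541 UMIs a cell. In carcinoma-like cells the thinned share was below that of T-like cells in all 4 libraries and the unthinned share above it in the lymph nodes; thinning takes a larger part of the UMIs from deeper cells, so neither order is read as a difference in expression. For Ciita the thinned share was 9.57%, 7.20%, 6.85% and 8.53% in B-like cells and 0.137%, 0.107%, 0.242% and 0.159% in T-like cells.

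Which cells supplied the class II RNA depended on their number as well as on their level. In the tumours, monocyte and macrophage-like cells held 41.2% of all UMIs of the 10 genes in the NanoCa and 50.7% in the mock library. Conventional dendritic-like cells held 21.3% and 16.4% from 0.617% and 0.477% of the cells. B-like cells held 17.3% and 13.7% in the tumours. In the lymph nodes B-like cells held 70.0% and 51.8%, germinal-centre B-like cells 11.6% and 21.9%, and monocyte and macrophage-like cells 2.27% and 11.6%. These shares move with cell numbers, which the sort can set.

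The mix of the chains differed between classes, and ratios of UMIs within 1 class sum show it without a scaling step. Counts of different genes also depend on transcript length and on where the reads fall, so a ratio is compared only between classes. H2-Aa to H2-Ab1 was 3.51, 4.22, 5.14 and 5.56 in mature dendritic-like cells, above the 1.55 to 1.75 of conventional dendritic-like, 1.80 to 2.24 of B-like and 1.33 to 1.51 of monocyte and macrophage-like cells. The lowest of the mature dendritic-like values, 3.51 (3.04 to 4.08) in the NanoCa tumour, had an interval above the highest of the others. H2-DM UMIs per 100 UMIs of the classical chains were 3.54, 3.26, 2.37 and 1.06 in mature dendritic-like, 7.29, 7.91, 6.01 and 6.07 in conventional dendritic-like, 11, 10.2, 10.5 and 10.0 in B-like and 15.1, 12.4, 11 and 10.1 in monocyte and macrophage-like cells. Mature dendritic-like cells thus had the least H2-DM for their classical chains and macrophage-like cells of the tumour the most of these 4 classes.

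The H2-O to H2-DM ratio, the inhibitor against the editor, was 0.235 to 0.316 in B-like cells, 0.0415 to 0.0727 in conventional dendritic-like cells and 0.00363 to 0.00752 in monocyte and macrophage-like cells. The ranges over the 4 libraries did not overlap between these classes. The other dendritic-like classes were not as low as the conventional ones. Plasmacytoid dendritic-like cells had 0.151, 0.154, 0.129 and 0.164. Mature dendritic-like cells, on sparse counts, had 0.189, 0.0833, 0.263 and 0.957, the last above the B-like range. H2-DMb1 to H2-DMb2 was 0.0633, 0.0812, 0.0561 and 0.0601 in B-like, 0.179, 0.210, 0.157 and 0.228 in conventional dendritic-like and 0.288, 0.282, 0.188 and 0.292 in monocyte and macrophage-like cells, so that H2-DMb1 took a larger part in both of the latter classes. In mature dendritic-like cells it did not, at 0.0286, 0, 0.0588 and 0.0714 on 0 to 4 H2-DMb1 UMIs a library. Ciita UMIs per 1000 Cd74 UMIs were 1.43, 0.892, 1.56 and 2.30 in monocyte and macrophage-like, 3.99, 1.85, 1.45 and 1.57 in conventional dendritic-like and 6.46, 3.80, 2.46 and 3.02 in B-like cells. In lymph node mature dendritic-like cells that ratio was 0.226 (0.00572 to 1.26) and 1.27 (0.412 to 2.96).

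**Figure D3:**
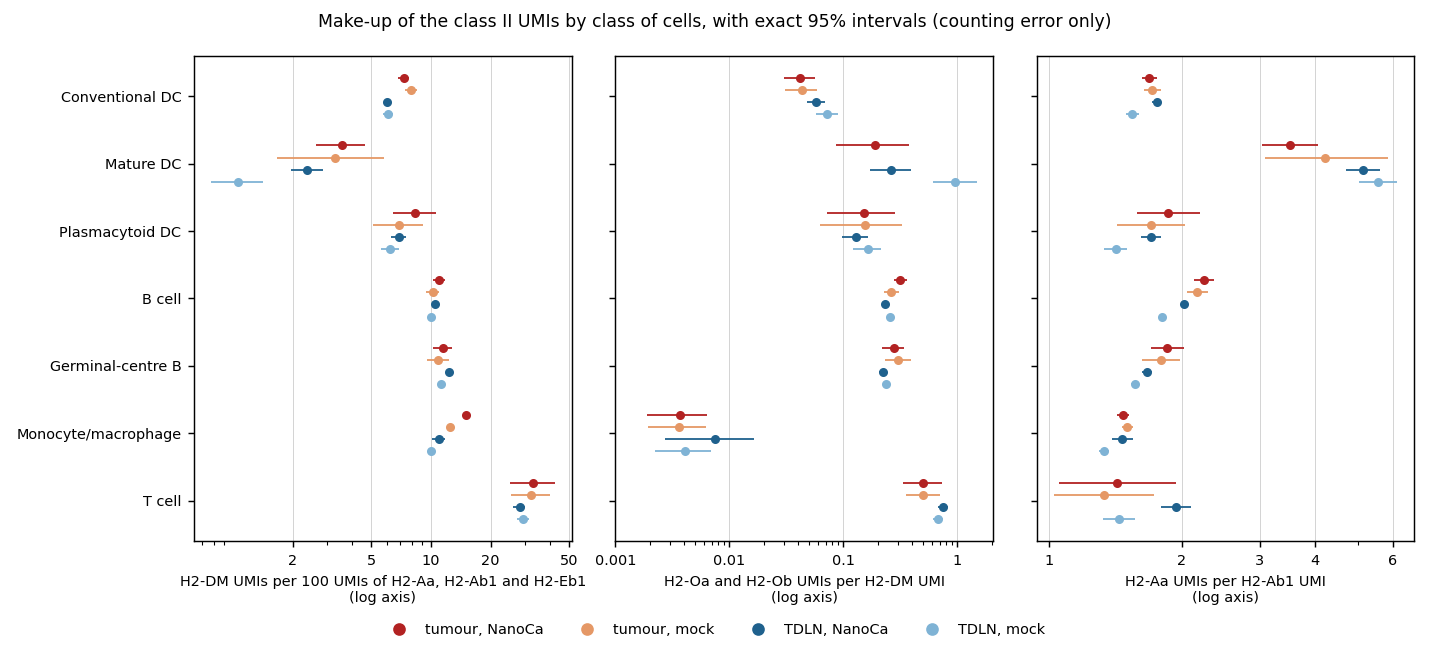
Ratios of UMIs between members within a class sum (logarithmic axes) by class and library, with 95% intervals for counting error. Mature dendritic-like cells have the highest H2-Aa to H2-Ab1 ratio, and the H2-O to H2-DM ratio is higher in B-like than in conventional dendritic-like cells and lowest in macrophage-like cells.

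Over the 36 class and library sums of at least 50 cells (neutrophil-like, fibroblast-like and endothelial-like sums included, and only 1 sum of conventional dendritic-like cells; the sums share libraries, depth and free RNA), the members' own log2 levels correlated with their mean at Pearson's r = 0.778 (H2-Oa) to 0.980 (Cd74). Genes with at least 20 CPM in some sum numbered 11188. Outside the members, the 5 of them most like the members' mean were Wdfy4 (r = 0.937), Gm20513 (0.929), Rubcnl (0.923), Ly86 (0.910) and Btk (0.904). Wdfy4 served as a dendritic cell marker here. Gm20513 is the antisense gene that overlaps H2-Eb1 on the opposite strand, and whether reads of H2-Eb1 entered its count was not tested. Ly86 encodes MD-1, the partner of the Cd180 receptor, and Btk a kinase of B cell receptor signalling. For Ciita the 5 were Gm20513 (0.912), Rubcnl (0.907), Marchf1 (0.907), Cd180 (0.897) and Siglecg (0.891). Marchf1 encodes a ubiquitin ligase that removes class II from the cell surface. Of the enhanceosome genes, Rfx5 had r = 0.618 with the members' mean and Rfxap r = 0.037. Cd86 and Cd83, a costimulatory ligand and a surface protein that protects class II from Marchf1, had r = 0.882 and 0.868. These coefficients are descriptions over sums that are not independent.

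NanoCa was compared with mock within each class and tissue. A gene was called higher or lower where the levels differed at least 1.5-fold, the 95% interval of their ratio excluded 1 and at least 50 UMIs were counted over both libraries; intervals are printed after each log2 ratio. In B-like cells no member was called in either tissue. In the tumour (407 and 237 cells) 10 were tested, with a median log2 ratio of -0.12 against 0.03 over all genes and 6.13% called higher and 3.0% called lower among the 3670 genes tested (9.13% in either direction). Cd74 there was 16769 and 19119.6 CPM, a log2 ratio of -0.19 (-0.23 to -0.15), and Ciita 108 and 72.6 CPM on 78 and 40 UMIs, 0.58 (0.01 to 1.17), a fold just under the 1.5 required. Without doublet removal 4 members were called lower there. In the lymph node (2341 and 1636 cells) 0 of 10 were called, with a median of 0.10 against -0.02 over all genes and 2.19% called higher and 7.05% called lower among the 10012 genes tested (9.24% in either direction). H2-Aa was 12095 and 10603 CPM in lymph node B-like cells, 0.19 (0.18 to 0.20), which was the farthest from 0 among the classical chains. In germinal-centre B-like cells of the lymph node (226 and 366 cells) 0 of 10 were called beside 2.96% called higher and 4.78% called lower among the 8644 genes tested (7.74% in either direction), and the members' median was 0.04.

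Conventional dendritic-like cells had 1 of 9 tested members called in the tumour (63 and 41 cells) and 0 of 10 in the lymph node (47 and 35 cells). In the tumour 5.92% were called higher and 5.46% lower among the 1959 genes tested (11.4% in either direction). A count of 1 of 9 is near that share, and nothing particular to the members is read from it. The member was Ciita, at 117 and 56.5 CPM in the NanoCa and mock tumour on 48 and 19 UMIs, a log2 ratio of 1.05 (0.26 to 1.90). The genes that Ciita drives were not called there: H2-Aa was 16130.1 and 16324 CPM (-0.02 (-0.07 to 0.03)) and Cd74 29324 and 30489 CPM (-0.06 (-0.09 to -0.02)). The Ciita call was lost when cells were thinned to 1000 UMIs, which left fewer than 50 UMIs. With 7.62% called higher and 7.71% called lower among the 3569 genes tested, lymph node H2-Aa was 18137 and 18796 CPM and Ciita 46.6 and 53.5 CPM (-0.20 (-0.92 to 0.55)). By subtype, Cd74 was 33533 and 32759 CPM in the tumour cluster led by Cd209a, Ccl17 and Mgl2 (31 and 22 cells) and 25466 and 28189.7 CPM in that led by Clec9a and Xcr1 (32 and 19 cells). Both subtypes' genes, Cd209a and Clec9a, were among the leading genes of the 1 lymph node cluster.

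Mature dendritic-like cells had more class II RNA with NanoCa in the tumour, and members were called higher in the lymph node too. In the tumour (36 and 12 cells) the 4 members that could be tested were all called higher, with 10.6% called higher and 10.5% called lower among the 620 genes tested. H2-Aa was 5456 CPM (95% interval 5091 to 5841) with NanoCa and 2914 CPM (95% interval 2534 to 3335) with mock, 0.90 (0.68 to 1.13). H2-Ab1 (1.17), H2-Eb1 (0.95) and Cd74 (0.73) were called as well. These sums rested on few cells, the 5 richest carrying 66.3% and 92.9% of the member UMIs, and the median thinned cell held 6 and 3. Markers of other cell types were lower with NanoCa here: those of monocytes and macrophages summed to 632 and 3204 CPM, those of neutrophils to 98.7 and 1478 CPM and those of B cells to 13.2 and 179.6 CPM in the NanoCa and mock cells, and their part in the result was not tested.

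In the lymph node (115 and 130 cells) 3 of 7 tested members were called higher in mature dendritic-like cells and 0 lower, with 6.06% called higher and 4.52% called lower among the 4734 genes tested. H2-Ab1 was 603 and 386 CPM (0.64 (0.47 to 0.82)), H2-DMa 46.2 and 25.5 CPM on 46 and 31 UMIs (0.86) and H2-DMb2 68.2 and 11.5 CPM on 68 and 14 UMIs (2.57). H2-Aa, at 3102 and 2145 CPM (0.53 (0.46 to 0.61)), and Cd74, at 4439.5 and 3243 CPM (0.45 (0.39 to 0.52)), stayed under the 1.5-fold limit. B markers summed to 91.3 and 59.2 CPM in these cells, higher with NanoCa, and their part was not tested. The 3 lymph node clusters were compared 1 by 1. In the cluster led by H2-M2, Zmynd15 and Ccl5 (65 and 73 cells) 3 of 5 tested were called higher, with H2-Aa at 3172 and 2091 CPM and 6.23% of genes called higher. In that led by Adam23, Dscaml1 and H2-M2 (19 and 27 cells) 4 of 4 were called higher, beside 21.9% of genes. In that led by H2-M2, Ccl22 and Il12b (31 and 30 cells) 0 of 4 were called beside 10.4% of genes called higher and 6.77% called lower, with H2-Aa at 2833 and 2756 CPM. The H2-DMb2 difference of the class lay in the first of these clusters, with 56 and 1 UMIs. The Adam23 cluster had 7 and 9 and the Il12b cluster 5 and 4. After thinning 2 of 4 tested members were called higher in the tumour and 1 of 4 in the lymph node.

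Plasmacytoid dendritic-like cells had 0 of 5 tested members called in the tumour (44 and 26 cells), with 4.09% called higher and 6.95% called lower among the 806 genes tested, and Cd74 at 7708 and 9557 CPM (-0.31 (-0.43 to -0.19)). Of the 8 tested in the lymph node (81 and 66 cells) 1 was called lower, with 6.79% called higher and 3.91% called lower among the 3814 genes tested: H2-DMb1, at 57.5 and 97.3 CPM on 39 and 51 UMIs, -0.76 (-1.40 to -0.13). The related H2-DMb2 was 339 and 242 CPM there (0.48 (0.17 to 0.81)), the other way and not called. After thinning 0 of 5 tested members were called in the lymph node.

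**Figure D4:**
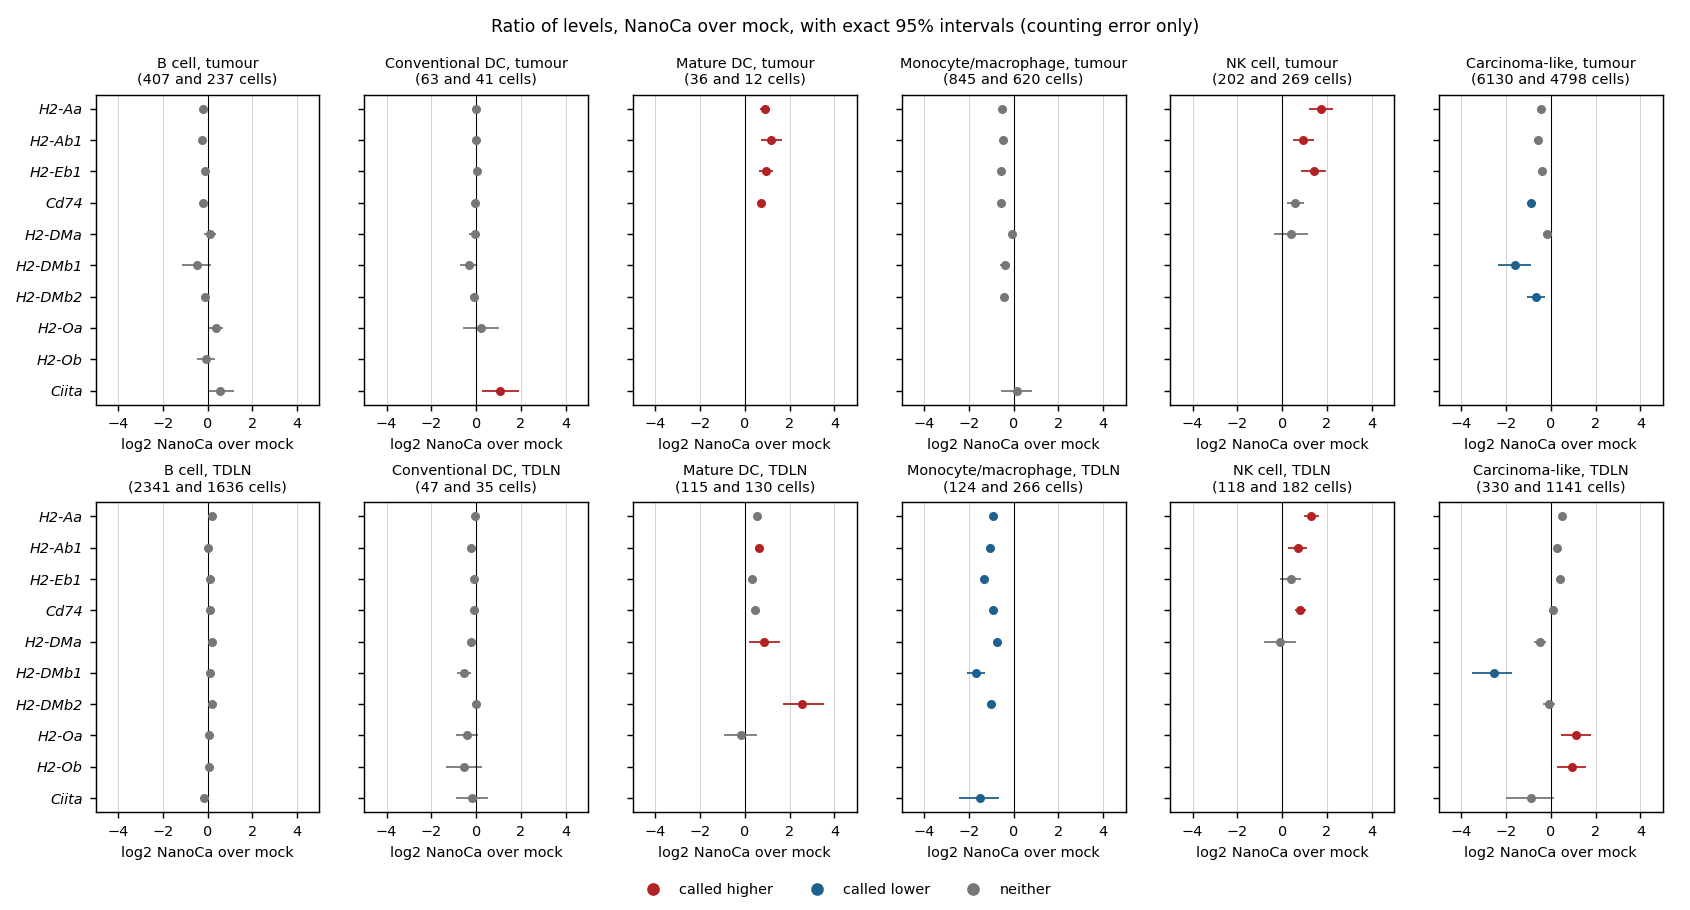
NanoCa over mock log2 ratios of the 10 genes by class, in the tumour and in the lymph node, with 95% intervals, shown for ratios with at least 50 UMIs over both libraries. The 8 members tested in lymph node macrophage-like cells lie below 0, those of mature dendritic-like cells mostly above it, and those of B-like cells near it.

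In monocyte and macrophage-like cells of the lymph node all 8 members tested were called lower with NanoCa. The class had 124 NanoCa and 266 mock cells, with 6.12% called higher and 6.90% called lower among the 6781 genes tested. The members' median log2 ratio was -1.04 against 0.05 over all genes. H2-Aa was 3070.2 CPM (95% interval 2965 to 3178) with NanoCa and 5824 CPM (95% interval 5727 to 5922) with mock, -0.92 (-0.98 to -0.87). H2-Eb1 was 1719.8 and 4237 CPM, -1.30 (-1.37 to -1.23), and Cd74 7897 and 14893 CPM, -0.92 (-0.95 to -0.88). Of the peptide editors, H2-DMb1 was 57.6 and 181 CPM, -1.65 (-2.06 to -1.26), and H2-DMa 390.3 and 649 CPM, -0.73 (-0.89 to -0.58). Ciita was 12.3 and 34.3 CPM on 13 and 81 UMIs, -1.48 (-2.45 to -0.63). H2-Oa and H2-Ob were too sparse to test.

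Per cell, 44.4% of NanoCa and 69.2% of mock lymph node macrophage-like cells held 10 or more member UMIs, and the 5 richest cells carried 34.7% and 12.1% of them. The median depth of the class was 4280.5 and 6946 UMIs a cell. The class's own markers summed to 35067 and 32534 CPM, those of conventional dendritic cells to 600.0 and 758 CPM and those of B cells to 130.4 and 111 CPM, so that these 3 marker lists did not differ by the 1.5-fold of a call. Carcinoma markers were 15.1 and 37.7 CPM and fibroblast markers 44.4 and 81.3 CPM, lower with NanoCa, and neither their part nor that of depth was tested beyond thinning.

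The lymph node clusters of the class, compared 1 by 1 after the data had been seen, differed from each other. In the C1qc, Ccl12 and C1qa cluster (33 and 75 cells) 7 of 7 tested members were called lower, with H2-Aa at 1039 and 4990.1 CPM and 6.44% of genes called lower. In the Pf4, Retnla and Mmp12 cluster (26 and 60 cells) 4 of 4 were called lower beside 14.7% of genes, with Cd74 at 2282 and 7037 CPM. In the Ccl6, Fcgr1 and Clec4n cluster (32 and 73 cells), the richest in Cd74 at 16485 and 19013 CPM, 1 of 7 was called lower beside 8.29%. The Lyz1, Pla2g2d and Timd4 cluster (28 and 22 cells) went the other way, with 3 of 4 called higher beside 7.76%. All 8 members were also called lower with the clusters set to equal shares in both libraries, 5 of 6 tested after thinning, and 2 of 9 tested at a clustering resolution of 0.5.

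In the tumour the same class (845 and 620 cells) had 0 of 8 tested members called, with 7.62% called higher and 2.84% called lower among the 9295 genes tested, and a members' median of -0.44 against 0.09. H2-Aa was 1845 and 2606 CPM, -0.50 (-0.54 to -0.46), and H2-DMa 382 and 401 CPM, -0.07 (-0.16 to 0.02). With edgeR's trimmed mean of M-values as the scaling 3 members were called lower, with median of ratios 2, and without doublet removal 1.

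The clusters inside the tumour class differed from each other as well. In the Ccl12, Fcrls and Mmp12 cluster (77 and 44 cells) 6 of 7 tested members were called lower beside 5.47% of genes, with H2-Aa at 692 and 1749 CPM, -1.34 (-1.49 to -1.18), and H2-DMa at 291 and 328 CPM, not called. In the Ccl8, Ccl12 and Cbr2 cluster (101 and 56 cells) 5 of 6 were called lower beside 5.69%, with Cd74 at 1273 and 3902 CPM, -1.62 (-1.76 to -1.47). The Retnla, Ccl12 and Fcrls cluster (145 and 72 cells) had 5 of 6 lower beside 3.70%, with H2-Aa at 375 and 909 CPM. The C1qc, C1qb and C1qa cluster (171 and 69 cells) had 5 of 7 lower beside 3.53%, with H2-Aa at 2407 and 4097 CPM.

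Other tumour macrophage-like clusters had few or no members called. The Ly6i, Hp and Sirpb1c cluster (151 and 82 cells), the richest in Cd74 at 13372 and 16379.9 CPM, had 1 of 7 called lower beside 4.02% of genes. In the Il1a, Ccl12 and Cxcl2 cluster (29 and 113 cells) it was 1 of 7, H2-Aa at 1631 and 2644 CPM, beside 3.21%. The Cxcl3, Retnla and F10 cluster (98 and 122 cells) had 1 of 7 called higher beside 6.82%, with H2-Aa at 2631 and 2103 CPM. The cluster led by Ifit1bl1, Sirpb1c and Fcgr1 (73 and 62 cells), of which Ifit1bl1 belongs to a family of interferon-induced genes, had 0 of 7 called beside 5.49% of genes called higher and 4.30% called lower, with Cd74 at 8199 and 7866 CPM. The difference between clusters was not tested.

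**Figure D5:**
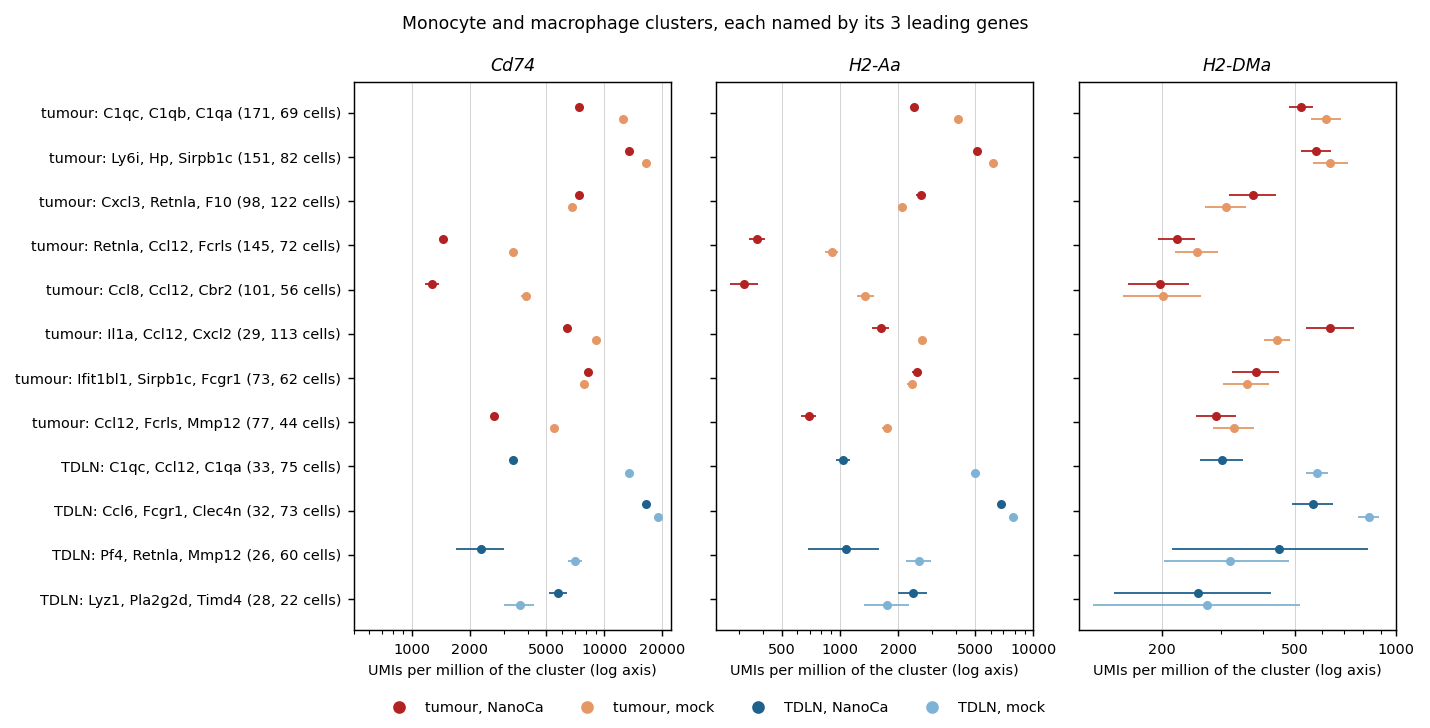
H2-Aa, Cd74 and H2-DMa levels (CPM, logarithmic axis) with NanoCa and mock in each monocyte and macrophage-like cluster of the tumour and the lymph node, with 95% Poisson intervals. In the clusters led by C1qc, or by Ccl12, Ccl8 or Retnla with Fcrls or Cbr2, H2-Aa and Cd74 lie lower with NanoCa, while H2-DMa lies near its mock level in most of them.

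NK-like cells had 3 of 5 tested members called higher with NanoCa and 0 lower in each tissue. In the tumour (202 and 269 cells; 5.50% called higher and 2.24% called lower among the 4875 genes tested) H2-Aa was 123 and 37.4 CPM on 94 and 44 UMIs, 1.72 (1.19 to 2.27), and H2-Ab1 (0.94) and H2-Eb1 (1.40) were called too. In the lymph node (118 and 182 cells; 7.40% called higher and 5.77% called lower among the 5323 genes tested) H2-Aa was 254 and 103 CPM, 1.30 (0.97 to 1.63), with H2-Ab1 (0.69) and Cd74 (0.81) also called. Except in the mock tumour, much of the RNA sat in very few cells. The 5 richest carried 57.2% and 21.0% of the member UMIs in the NanoCa and mock tumour and 71.7% and 54.3% in the lymph node. The single richest cell held 123 and 22 member UMIs in the tumour and 269 and 194 in the lymph node. The share of NK-like cells with a Cd74 UMI after thinning was 10.1% (95% interval 6.28 to 15.2) and 10.6% (95% interval 7.16 to 15) in the NanoCa and mock tumour, and no member was called after thinning in either tissue, where 1 could be tested. Without doublet removal 5 of 6 tested members were called higher in the lymph node. The 10 B markers summed to 22.3 and 6.80 CPM in tumour and 130.5 and 57.2 CPM in lymph node NK-like cells, higher with NanoCa in both, with Ms4a1, Cd22 and Fcer2a at 0 in both tumour libraries. In the lymph node the macrophage markers were 493 and 1489.7 CPM and the mature dendritic markers 468 and 292 CPM. The part of these lists in the NK-like result was not tested.

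Carcinoma-like cells of the tumour (6130 and 4798 cells) had 3 of 7 tested members called lower with NanoCa and 0 higher, with 5.86% called higher and 3.60% called lower among the 13578 genes tested. Cd74 was 17.5 CPM (95% interval 16.8 to 18.3) and 32.2 CPM (95% interval 31.1 to 33.3), -0.88 (-0.96 to -0.80), H2-DMb1 0.184 and 0.556 CPM on 23 and 59 UMIs and H2-DMb2 0.817 and 1.29 CPM. Per cell, Cd74 was 0.357 and 0.713 UMIs, beside 0.351 and 0.449 in T-like cells of the same libraries, and RNA of the carcinoma-like cells themselves and RNA from other cells cannot be told apart at these levels. After thinning 2 of 5 tested members were called lower. H2-DMa, at 4.83 and 5.46 CPM, was not called (-0.18 (-0.34 to -0.01)). The ratio of H2-DM to the classical chains was 39.8, 35.9, 13.8 and 25.7 per 100 in the 4 libraries, in the tumours above that of every antigen-presenting class. That was not particular to carcinoma-like cells, since T-like cells had 32.7, 31.8, 28.0 and 29.2 per 100. NK-like cells had 12.8, 23.9, 15.9 and 19.7 per 100. In the lymph node (330 and 1141 cells) H2-Oa (1.99 and 0.913 CPM, 1.12 (0.44 to 1.79)) and H2-Ob (2.10 and 1.10 CPM, 0.94 (0.30 to 1.57)) were called higher and H2-DMb1 (0.682 and 4.02 CPM, -2.56 (-3.54 to -1.72)) lower of 10 tested, with 6.40% called higher and 7.14% called lower among the 11962 genes tested. There the 10 B markers summed to 60.4 and 35.6 CPM and the T markers to 76.2 and 36.1 CPM, both higher with NanoCa, while the macrophage markers were 42.2 and 75.7 CPM; their part was not tested. After thinning 0 of 4 tested members were called in the lymph node. The lymph node clusters of the class, compared 1 by 1 after the data had been seen, differed from each other. In that of 61 and 268 cells 4 of 4 tested members were called lower beside 16.1% of genes. Cd74 there was 450 and 1148 CPM on 50 and 432 UMIs. Its cells had first been grouped as myeloid and took the carcinoma name only when clustered again. It was also shallow: 956 genes had enough UMIs to test, against 6644 in the cluster of 38 and 102 cells. The part of depth and of other cells in this cluster was not tested. In that of 38 and 102 cells 2 of 6 were called higher, H2-Aa and Cd74, beside 6.37%. In that of 231 and 771 cells 2 of 9 were called higher and 1 lower, beside 6.07% and 7.66%.

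Tumour was compared with lymph node within each treatment; the comparisons share libraries with those above. Monocyte and macrophage-like cells had less class II RNA in the tumour. Under mock 8 of 8 tested members were called lower, with 5.19% called higher and 16.5% called lower among the 8530 genes tested and a members' median of -1.24 against -0.12. Cd74 was 8150.4 CPM in the tumour and 14893 CPM in the lymph node, -0.87 (-0.89 to -0.85), H2-Eb1 had a log2 ratio of -1.36 (-1.41 to -1.32) and Ciita of -2.24 (-2.85 to -1.65). Under NanoCa 4 of 8 were called lower, with 5.06% called higher and 10.1% called lower among the 8308 genes tested: H2-Aa (-0.73), H2-Ab1 (-0.74), H2-Eb1 (-0.60) and H2-DMb2 (-0.62). H2-DMa, lower under mock at -0.69, was -0.03 (-0.18 to 0.13) under NanoCa. Under NanoCa the count was 0 with edgeR's scaling, 1 with median of ratios, 0 when clustering used all variable genes and 7 at a clustering resolution of 0.5. Under mock 5 of 7 tested members were called lower after thinning.

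B-like cells also had lower levels in the tumour. Under mock 5 of 10 members were called lower and 0 higher, with 9.41% called higher and 12.6% called lower among the 8661 genes tested, and under NanoCa 7 lower and 1 higher, with 12.7% called higher and 13% called lower among the 9187 genes tested. H2-Ab1 was 3398 against 5881 CPM under mock (-0.79 (-0.86 to -0.72)) and 2892 against 5965 CPM under NanoCa (-1.04 (-1.11 to -0.98)). The member called higher was Ciita, 108 against 71.3 CPM under NanoCa (0.60 (0.25 to 0.95)), which was -0.15 under mock. H2-Oa and H2-Ob were not called under NanoCa (-0.42 and -0.48). Without doublet removal 9 members were called lower under mock and the log2 ratio of Ciita under NanoCa was -0.25, and after thinning 1 was called under mock.

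Dendritic-like classes differed in direction between tissues. Mature dendritic-like cells had more class II RNA in the tumour in the sum over cells: under NanoCa 6 of 6 tested members were called higher, with 9.86% called higher and 13.1% called lower among the 2952 genes tested, and Cd74 was 10280.4 against 4439.5 CPM (1.21 (1.13 to 1.29)). Under mock, with 12 tumour cells, 2 of 4 were called higher, H2-Ab1 (0.84 (0.39 to 1.26)) and Cd74 (0.94 (0.79 to 1.08)), with 7.50% called higher and 5.75% called lower among the 3215 genes tested. The 5 richest cells carried 66.3% and 92.9% of the tumour class's member UMIs under NanoCa and mock, and the median thinned cell held 6 in the tumour against 3 in the lymph node under NanoCa and 3 against 3 under mock. Without doublet removal none of 7 tested was called under NanoCa, and under mock 1 was called lower, with the log2 ratio of H2-Ab1 at -0.41. Macrophage markers summed to 632 against 119 CPM in tumour and lymph node mature dendritic-like cells under NanoCa and 3204 against 183 CPM under mock, and their part was not tested. Plasmacytoid dendritic-like cells had 5 of 7 called lower in the tumour under NanoCa, with 7.48% called higher and 13.2% called lower among the 2846 genes tested, and 3 of 8 under mock, with 6.36% called higher and 9.69% called lower among the 2106 genes tested. Their H2-Ab1 was -1.10 and -0.93. Conventional dendritic-like cells had 1 of 8 tested members called under mock, H2-Oa, which was lower (-0.89 (-1.63 to -0.20)). Beside it 7.23% were called higher and 10.1% lower among the 2228 genes tested (17.4% in either direction). Under NanoCa 1 of 9 was called, Ciita, which was higher (1.33 (0.71 to 1.95)). Beside it 8.09% were called higher and 10.6% lower among the 3401 genes tested (18.7% in either direction). Neither count is above its share, and nothing particular to the members is read from them. The Ciita call was lost after thinning and the H2-Oa call at a clustering resolution of 0.5. Under mock, either alternative scaling and thinning left 1 mature dendritic-like member called, and a minimum of 10 UMIs gave 4.

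NK-like cells had 3 of 5 tested members called lower in the tumour under mock, with 5.79% called higher and 15.3% called lower among the 5822 genes tested, and 2 of 5 under NanoCa, with 10.2% called higher and 20.8% called lower among the 4272 genes tested, and H2-Aa was among them in both (-1.46 and -1.04). After thinning the 1 member tested was called under either treatment, and without doublet removal 5 were called under NanoCa. Carcinoma-like cells had 10 of 10 called lower in the tumour under mock, with 4.01% called higher and 13.8% called lower among the 13151 genes tested, and 7 of 7 under NanoCa, with 5.02% called higher and 10.1% called lower among the 12843 genes tested. Cd74 had log2 ratios of -2.18 (-2.23 to -2.12) and -3.16 (-3.24 to -3.07) in them. The B markers, at 6.81 and 6.46 CPM in tumour and 60.4 and 35.6 CPM in lymph node carcinoma-like cells, moved the same way, as did the T markers (3.0 and 4.00 against 76.2 and 36.1 CPM), and their part was not tested.

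The wider class II pathway was read from a list of 37 names, of which 32 were in the files: regulators of Ciita and the enhanceosome, proteases and their inhibitor, turnover, costimulation, Cd74 partners and T cell receptors of class II. Each count of called genes with NanoCa over mock is given beside the shares called higher and lower among all genes tested in that comparison. In macrophage-like cells of the lymph node 0 were higher and 6 lower of 26 tested, beside 6.12% and 6.90%, and in those of the tumour 2 higher and 2 lower of 27, beside 7.62% and 2.84%. Carcinoma-like cells had 1 higher and 5 lower of 29 in the tumour, beside 5.86% and 3.60%, and 4 higher and 3 lower of 30 in the lymph node, beside 6.40% and 7.14%. B-like cells had 2 higher and 2 lower of 20 in the tumour, beside 6.13% and 3.0%, and 0 higher and 1 lower of 29 in the lymph node, beside 2.19% and 7.05%. Germinal-centre B-like cells of the lymph node had 0 higher and 1 lower of 27, beside 2.96% and 4.78%. Conventional dendritic-like cells had 0 higher and 2 lower of 18 in the tumour, beside 5.92% and 5.46%, and 0 higher and 3 lower of 21 in the lymph node, beside 7.62% and 7.71%. Mature dendritic-like cells had 3 higher and 2 lower of 16 in the tumour, beside 10.6% and 10.5%, and 2 higher and 1 lower of 23 in the lymph node, beside 6.06% and 4.52%. Plasmacytoid dendritic-like cells had 0 higher and 2 lower of 11 in the tumour, beside 4.09% and 6.95%, and 1 higher and 4 lower of 21 in the lymph node, beside 6.79% and 3.91%. NK-like cells had 1 higher and 0 lower of 18 in the tumour, beside 5.50% and 2.24%, and 2 higher and 1 lower of 16 in the lymph node, beside 7.40% and 5.77%. Most of these counts are of 3 genes or fewer, and nothing particular to the list is read from them.

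Irf1, an interferon-induced factor that acts on a promoter of Ciita, was called lower with NanoCa in 9 of 15 class comparisons and higher in 0, and was followed through the classes after its values had been seen. In lymph node carcinoma-like cells Irf1 was 41.2 and 149 CPM (-1.86 (-1.97 to -1.75)). In tumour macrophage-like cells Irf1 was 92.9 and 200.4 CPM (-1.11 (-1.27 to -0.95)), and in those of the lymph node 131 and 301 CPM (-1.20 (-1.47 to -0.93)). Lymph node B-like cells, at 147 and 144 CPM, and mature dendritic-like cells, at 329 and 331 CPM in the tumour and 534 and 479 CPM in the lymph node, were not called. Germinal-centre B-like cells of the lymph node, with no member called, were not called for Irf1 either. Nor were NK-like cells, with 3 of 5 tested members called higher in each tissue. How often genes outside the list were called lower over these comparisons was not counted. The classes in which Irf1 was called lower included macrophage-like cells, whose members were lower or not called. They also included conventional dendritic-like cells, whose classical chains were not called. Their Ciita was called higher in the tumour, at 117 and 56.5 CPM, as the only 1 of 9 tested members. Tumour B-like and plasmacytoid dendritic-like cells, with no member called, were among them, as were lymph node plasmacytoid dendritic-like and carcinoma-like cells of both tissues. A relation of Irf1 to the members was not tested.

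Of the other genes on the list, Rfxap, a subunit of the RFX complex, was 46.8 and 20.9 CPM in tumour carcinoma-like cells (1.17 (1.10 to 1.24)). Ctsl, a cathepsin that can trim Cd74, was 41.4 and 76.3 CPM in lymph node B-like cells (-0.88 (-1.08 to -0.69)). Mif, a ligand of Cd74, was 528 and 833 CPM in lymph node macrophage-like cells (-0.66 (-0.79 to -0.52)). In tumour mature dendritic-like cells the protease inhibitor Cst3 was 22766 and 12776 CPM (0.83 (0.73 to 0.94)) and the lysosomal protease Ctsb 204 and 649 CPM (-1.67 (-2.37 to -0.99)). Between tissues, Ctsl was 425 and 41.4 CPM in tumour and lymph node B-like cells under NanoCa (3.36 (3.14 to 3.58)). Under mock it was 421 and 76.3 CPM (2.46 (2.23 to 2.69)). Ctsb was likewise 214 and 55.9 CPM in them under NanoCa (1.94 (1.67 to 2.20)). That was not particular to B-like cells, in which 4 of 8 proteases and their inhibitor were called higher in the tumour under NanoCa, beside 12.7% of genes. In NK-like cells it was 6 of 6 beside 10.2%, and in conventional dendritic-like cells 4 of 8 beside 8.09%. In macrophage-like cells it was 1 of 8 beside 5.06%, and in carcinoma-like cells 0 of 8 beside 5.02%. The part of RNA from other cells was not tested. In mature dendritic-like cells Mif was 507 and 105 CPM in tumour and lymph node under NanoCa (2.27 (1.82 to 2.70)) and 773 and 125 CPM under mock (2.63 (2.16 to 3.08)), where Cd74 itself was also above. Ctsd, an aspartyl protease, was 309 and 499 CPM with NanoCa and mock in lymph node NK-like cells (-0.69 (-0.91 to -0.47)), and Marchf8, a ligase related to Marchf1, 9.32 and 16 CPM in lymph node carcinoma-like cells (-0.78 (-1.03 to -0.54)).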

How the data were processed

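The authors deposited UMI counts for each of the 4 libraries, unnormalized, by gene and by barcode, from Cell Ranger 7.1.0, per the file headers. Genome build and annotation: not given in the sources used here. A barcode was kept with 200 genes or more and no more than 10% of its UMIs mitochondrial, and the highest Scrublet scores were removed as doublets at a rate of 0.8% per 1000 barcodes (689 to 1006 a library). Each tissue was clustered with scanpy 1.11.5 (2000 variable genes without the members and the wider pathway, 30 principal components in double precision, 15 neighbours, Leiden resolution 1), and myeloid cells again with 20 components. An immune cluster was named for the class with the highest mean marker fold, with 3 or more markers at 1.5-fold or more, and left unnamed where another class scored nearly as high or led its top 10 genes. Carcinoma-like clusters also had Ptprc and Xist under 20% of the immune median. Prdm1 and Cd4, which stood in both lists, were dropped from the markers.

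UMIs were summed by class and library. Levels have exact Poisson intervals, ratios exact conditional binomial intervals and shares Clopper-Pearson intervals, all at 95%; a gene at 0 was set to 3 counts. Classes needed 100 cells in each library and dendritic-like classes 10. The comparisons of single clusters (10 cells), other clustering seeds and the naming rules were added after the data had been seen. All 10 members are named; of the wider pathway, up to 6 genes a comparison by the interval bound farthest from a ratio of 1, leaving out genes not reported here; of other genes, the 5 most alike over sums of at least 50 cells, on log2(CPM + 1). The members and lists were chosen with earlier results of these data known. The calls were also run on counts simulated with counting error only, which cannot show how they behave under spread between cells, mice or libraries. Alternatives were edgeR 4.0.16 scaling, median of ratios, other filters, clustering without leaving out the members, resolution 0.5, thinning to 1000 UMIs, subtraction of the T-like level and clusters at equal shares. Promoter and transcript sequences were read from RefSeq and GENCODE tables of GRCm38.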

Additional observations from a re-analysis of the deposited data

How the results depend on the processing

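No paired analysis was possible because each group has 1 library. Of 328 recounts of the members called, over 29 comparisons and the alternatives listed above, 291 stayed within 1.5 times the reported count and 37 did not; the cause was not tested except where thinning leaves fewer UMIs and so fewer members to test.

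After thinning to 1000 UMIs a cell, NanoCa over mock called 0 in tumour conventional dendritic-like, 2 in tumour and 1 in lymph node mature dendritic-like, 0 in lymph node plasmacytoid dendritic-like, 5 in lymph node macrophage-like, 0 in tumour and 0 in lymph node NK-like, and 0 in lymph node carcinoma-like cells. Tumour over lymph node called 1 in B-like, 1 in mature dendritic-like and 5 in macrophage-like cells under mock, 0 in conventional dendritic-like cells under NanoCa, 1 and 1 in NK-like, and 5 and 4 in carcinoma-like cells under mock and NanoCa. Thinning also turned the log2 ratio of H2-Ab1 with NanoCa over mock in lymph node NK-like cells to -0.56, that of H2-DMb1 in lymph node carcinoma-like cells to 3.26, and, between tissues, those of H2-DMa in mature dendritic-like and carcinoma-like cells under NanoCa to -0.61 and 0.55 and that of H2-DMb1 in carcinoma-like cells under mock to 0.012.

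Without doublet removal NanoCa over mock called 4 in tumour B-like, 1 in tumour macrophage-like and 5 in lymph node NK-like cells. Tumour over lymph node then called 9 in B-like cells under mock, 1 lower and 0 in mature dendritic-like cells under mock and NanoCa, and 5 in NK-like cells under NanoCa. The ratio of Ciita in B-like cells under NanoCa was then -0.25 and that of H2-Ab1 in mature dendritic-like cells under mock -0.41. With TMM and median of ratios, NanoCa over mock called 3 and 2 in tumour macrophage-like cells, and tumour over lymph node 0 and 1 in macrophage-like cells under NanoCa and 1 and 1 in mature dendritic-like cells under mock. At resolution 0.5, 2 were called in lymph node macrophage-like cells, and between tissues 7 in macrophage-like cells under NanoCa and 0 in conventional dendritic-like cells under mock. Clustering on all variable genes gave 1 in tumour B-like cells and 0 in macrophage-like cells between tissues under NanoCa. Subtracting the T-like level gave 1 in tumour B-like and 1 in lymph node conventional dendritic-like cells. It gave no count for 6 comparisons of NK-like and carcinoma-like cells, where most tested members were at or below it in 1 library or both. Of the NK-like sums compared there, only that of the mock tumour was below it for some tested members, with Cd74 at 103 against 154 CPM. A minimum of 10 UMIs gave 4 in mature dendritic-like cells between tissues under mock. No count moved by more than 1.5 times with either other clustering seed, with at most 5% mitochondrial UMIs or with clusters at equal shares.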

Other observations

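Unnamed clusters held 4.28% and 6.85% of the member UMIs in the NanoCa and mock tumour. The unnamed tumour cluster led by Cd209g, Lyve1 and Cd209f, with Folr2 among its leading genes (35 and 13 cells), had Cd74 at 513 CPM (95% interval 428 to 609.8) with NanoCa and 1581 CPM (95% interval 1391 to 1789.9) with mock. Lyve1 is known from tissue-resident macrophages and lymphatic endothelium. The unnamed cluster led by Mmp12, Arg1 and Pf4 (64 and 33 cells) had Cd74 at 2362 and 2053 CPM.

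Among carcinoma-like clusters of the tumour, chosen after their values were seen, the one led by Apol9a, Apol9b and Ifit3b (349 and 444 cells), of which Ifit3b belongs to a family of interferon-induced genes, had Cd74 at 32.3 and 51.0 CPM on 274 and 613 UMIs, and the one led by Clu, Krt8 and Glod5 (509 and 58 cells) at 8.52 and 57.0 CPM. T-like cells of the same libraries (764 and 955 cells, far shallower) had 268 and 429 Cd74 UMIs. In the lymph node, the B-like cluster led by Gm47782, Ebf1 and Bank1 (130 and 96 cells) had Cd74 at 9726 and 7092 CPM with 3 of 10 members called higher beside 7.05% of genes, while the large B-like cluster led by Fcer2a, Cd79a and Fcmr (2151 and 1530 cells) had 29798 and 27398 CPM.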
